A study of Mus musculus with 4 samples.

Results

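Cholesterol genes were examined in mouse caecal tissue, as 32 genes of cholesterol synthesis, uptake, transport and SREBP control that were listed by name. Of these, 28 had at least 1 probe set annotated to that gene alone, among 22180 genes with such a probe set, and where a gene had several, the one with the highest mean was used. The other 4, Acat2, Idi1, Soat2 and Nr1h2, are not analysed here. The samples were 4 Affymetrix arrays from C57Bl/6 mice aged 21 weeks, all fed an n-3 PUFA depleted chow (PUFA, polyunsaturated fatty acids). The groups were apoE knock-out (KO) mice given the prebiotic Orafti P95 at 250 mg per mouse and day over the final 15 days, KO mice without it, wild-type (WT) mice titled as given it, and WT mice titled as not given it. Each array carried RNA pooled from 6 mice picked for RNA quality, so every group is 1 pooled sample with no replicate of its own and the spread between mice is not visible. The written description of each WT array gives the diet opposite to that in its title, so WT arrays are named by title below, and averages over both WT arrays are free of this conflict.

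Cholesterol is made from acetyl-CoA through mevalonate, squalene and a series of sterols. The enzymes of this route are switched on by SREBP-2, a membrane-bound transcription factor that Scap carries from the endoplasmic reticulum to the Golgi for cleavage when sterol is scarce and that the Insig proteins hold back when sterol is plentiful. Liver X receptors sense oxysterols and act in the opposite direction, favouring export and limiting uptake. In the intestine, Npc1l1 takes up luminal cholesterol, and apolipoprotein E, missing in the KO mice, is a ligand for clearing lipoprotein remnants from plasma.

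The arrays were close to each other, with Pearson's r between 0.984 and 0.988 across all probe sets and array medians of 2.99 to 3.01 log2 units over probe sets with 1 symbol. Values below are log2 RMA units, and a gene near the array median is near background. Apoe itself read 3.13 and 2.83 in the KO pools with and without prebiotics, against 4.09 and 3.90 in the WT pools titled with and without. All 6 general epithelial markers, such as Epcam and Krt8, lay above the array median on every array, and of 5 hepatocyte markers 2 lay below it on every array. All 28 cholesterol genes passed the expression filter, a value at the array median or higher on at least 1 array, and 27 of them lay above the median on every array. Npc1l1 was the exception, below it in the KO pool without prebiotics.

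**Figure D1:**
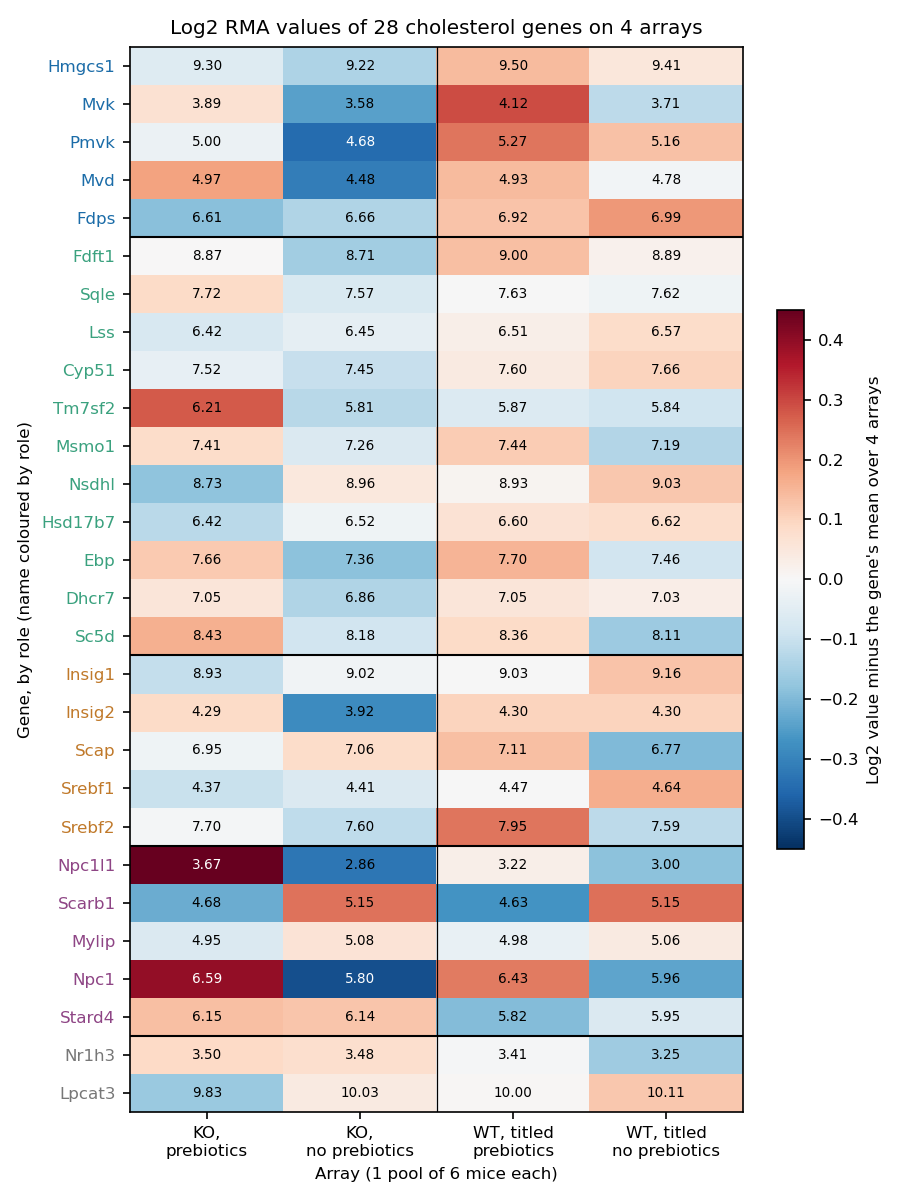
Log2 RMA values of the 28 genes (rows, by role) on the 4 arrays (columns, each 1 pool of 6 mice), coloured by the distance from each gene's own mean over the arrays. The KO pool without prebiotics is at or below the gene's mean for every gene of the mevalonate arm, and Npc1 and Npc1l1 show the widest spread.

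Promoter windows from RefSeq on GRCm38.p6, from 250 bases before to 50 after an annotated start, were available for 22 of the 28 genes, 6 of them with more than 1 window. In all, 5 motifs were searched on both strands. CCAAT, the letters bound by NF-Y, a factor that works beside SREBP-2, was present for 20 of 22 genes (90.9%) and for 13 of 13 synthesis genes, beside 42% of the 10225 tested genes with a window and 37.4% of all 32851 windows. GGGCGG, an Sp1 motif, was present for 19 of 22 (86.4%), beside 65.3% of tested genes and 35.7% of all windows. The sterol regulatory element form TCACNCCAC was present for 1 of 22, Hmgcs1 (4.55%), beside 1.38% of tested genes and 1.24% of all windows, and the longer form with an A before these letters for 0, beside 0.205% of tested genes and 0.234% of all windows. The liver X receptor repeat, AGGTCA and again AGGTCA after 4 bases, was present for 0 of 22, beside 0% of tested genes and 0.0152% of all windows. A match describes letters in a window and is not a measured binding site. Elements that differ from these letter patterns or lie outside the windows were not counted, so a count of 0 does not show that a gene lacks such an element.

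**Figure D2:**
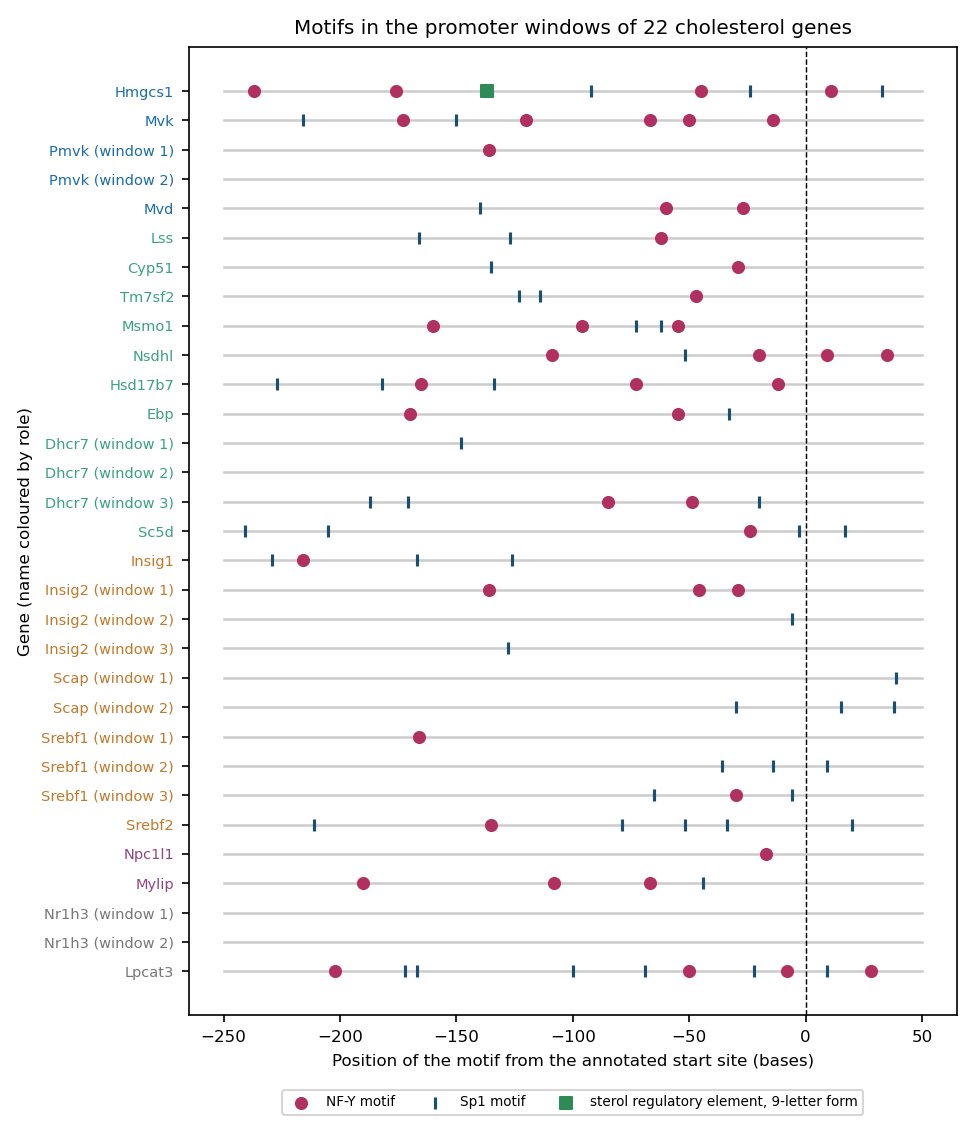
Positions of the NF-Y, Sp1 and sterol regulatory element motifs (first base, distance in bases from the annotated start site) in all promoter windows of 22 cholesterol genes. Each of the 13 synthesis genes has at least 1 NF-Y motif in a window, and Hmgcs1 alone carries the 9-letter sterol regulatory element form.

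The windows of 5 genes are shown, Hmgcs1 as the one with the sterol regulatory element form, Mvk, Mvd and Ebp as synthesis genes higher on the arrays with prebiotics in both pairs, and Npc1l1 as the gene with the widest difference between the KO pools. Each runs 5′ to 3′ along its gene, and capitals mark CCAAT on either strand (read as ATTGG on the other) and, in Hmgcs1, TCACNCCAC. They lie at chr13:119690101-119690400 (plus strand, Hmgcs1), chr5:114444019-114444318 (plus strand, Mvk), chr8:122443373-122443672 (minus strand, Mvd), chrX:8193463-8193762 (minus strand, Ebp) and chr11:6230196-6230495 (minus strand, Npc1l1).
Hmgcs1: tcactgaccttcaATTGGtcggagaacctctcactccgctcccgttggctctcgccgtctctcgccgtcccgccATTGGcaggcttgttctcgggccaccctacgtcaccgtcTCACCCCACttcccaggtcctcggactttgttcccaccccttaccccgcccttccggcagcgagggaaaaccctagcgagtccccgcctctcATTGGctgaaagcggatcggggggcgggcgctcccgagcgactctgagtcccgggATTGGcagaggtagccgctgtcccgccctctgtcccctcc
Mvk: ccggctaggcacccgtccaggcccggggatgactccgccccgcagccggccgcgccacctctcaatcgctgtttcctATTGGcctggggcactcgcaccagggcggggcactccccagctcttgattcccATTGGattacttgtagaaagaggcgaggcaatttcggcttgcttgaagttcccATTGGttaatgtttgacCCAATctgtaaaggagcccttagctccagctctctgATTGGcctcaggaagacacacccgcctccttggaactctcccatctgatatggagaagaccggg
Mvd: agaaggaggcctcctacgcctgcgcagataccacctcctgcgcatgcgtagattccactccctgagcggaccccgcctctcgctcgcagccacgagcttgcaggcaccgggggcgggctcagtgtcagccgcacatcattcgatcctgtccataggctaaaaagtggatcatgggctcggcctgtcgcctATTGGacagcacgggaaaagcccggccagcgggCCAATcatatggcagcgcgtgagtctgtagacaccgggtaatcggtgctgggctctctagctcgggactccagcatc
Ebp: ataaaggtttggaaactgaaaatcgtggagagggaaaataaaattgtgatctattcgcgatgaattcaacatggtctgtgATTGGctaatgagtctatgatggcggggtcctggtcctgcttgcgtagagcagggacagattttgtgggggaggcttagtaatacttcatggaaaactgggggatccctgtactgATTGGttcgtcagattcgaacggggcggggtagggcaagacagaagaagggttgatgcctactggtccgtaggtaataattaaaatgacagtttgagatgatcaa
Npc1l1: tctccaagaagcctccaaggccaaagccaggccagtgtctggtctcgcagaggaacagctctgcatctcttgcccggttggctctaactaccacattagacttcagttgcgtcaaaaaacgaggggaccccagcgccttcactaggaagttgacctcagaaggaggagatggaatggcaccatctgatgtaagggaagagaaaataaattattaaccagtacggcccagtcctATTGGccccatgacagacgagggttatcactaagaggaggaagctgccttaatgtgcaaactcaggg
Mvk holds 5 CCAAT motifs, Hmgcs1 4, Mvd and Ebp 2 each and Npc1l1 1. The Npc1l1 window holds 0 Sp1 motifs, while each of the other 4 windows holds at least 1.

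Between genotypes, the genes that make cholesterol were mostly lower in the KO pools than in the WT pools, by small amounts, and none passed the test. Over both diets, 12 of the 16 synthesis genes had a lower KO mean, beside 6166 of all 13083 genes tested. The median log2 difference of the 16 genes was -0.13, and all 28 genes together had a median of -0.12, beside 0.01 over all 13083 genes tested. Without overlap, both KO values were under both WT values for 10 of the 28 genes (35.7%), beside 14% of all genes tested, and over both for 2 (7.14%), beside 16.2% of all genes. limma called 0 of the 28 genes, and 0% of all genes, at an adjusted p under 0.05. Apoe itself, at -1.02 log2 units, had a limma adjusted p of 0.78. The error term of this model also holds the diet difference, so the absence of calls says little about the 28 genes. At an unadjusted p under 0.05 there was 1 of 28 (3.57%), beside 3.29% of all genes. Such p-values see no more than the spread among 4 pooled samples, and in tissue RNA fewer cells of a type and less RNA per cell cannot be told apart.

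The enzymes of the mevalonate arm, which turn acetyl-CoA into farnesyl pyrophosphate, had a lower KO mean in 5 of 5 measured members, with a median log2 difference of -0.20. Fdps, farnesyl pyrophosphate synthase, read 6.61 and 6.66 in the KO pools with and without prebiotics, against 6.92 and 6.99 in the WT pools titled with and without. The KO and WT values did not overlap. Its KO minus WT value was -0.32 (SE 0.13, unadjusted p = 0.040, limma adjusted p = 0.999). Pmvk, phosphomevalonate kinase, read 4.999 and 4.68 in the KO pools with and without prebiotics, against 5.27 and 5.16 in the WT pools titled with and without. Both KO values were the lower ones, and the KO minus WT value was -0.37 (SE 0.16, limma adjusted p = 0.999). Hmgcs1, the synthase that makes HMG-CoA for mevalonate, read 9.30 and 9.22 in the KO pools with and without prebiotics, against 9.50 and 9.41 in the WT pools titled with and without, again without overlap, differing by -0.20 (SE 0.11, limma adjusted p = 0.999).

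Mevalonate kinase (Mvk) read 3.89 and 3.58 in the KO pools with and without prebiotics, against 4.12 and 3.71 in the WT pools titled with and without. These are low values, the lowest 0.59 log2 units above the array median. Mvd, the decarboxylase that yields isopentenyl pyrophosphate, read 4.97 and 4.48 in the KO pools with and without prebiotics, against 4.93 and 4.78 in the WT pools titled with and without. For both genes the genotypes overlapped, and their signs rest on single arrays. The KO minus WT difference of Mvk went to 0.03 without the WT array titled with prebiotics, and that of Mvd to 0.12 without the KO array that had no prebiotics.

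Among the enzymes that carry squalene on to cholesterol, 7 of 11 had a lower KO mean, beside 6166 of all 13083 genes tested. The median log2 difference of these 11 genes was -0.08 (range -0.15 to 0.15). Fdft1, squalene synthase, which commits farnesyl pyrophosphate to sterols, read 8.87 and 8.71 in the KO pools with and without prebiotics, against 9.001 and 8.89 in the WT pools titled with and without. Lss, which cyclises squalene epoxide to lanosterol, Cyp51, which removes a methyl group from lanosterol, and Hsd17b7, a 3-keto-steroid reductase of the pathway, also had both KO arrays below both WT arrays, with log2 differences of -0.11, -0.14 and -0.14. Sqle, the monooxygenase at a control point of the route, differed by 0.02, and its 4 arrays spanned 0.15 log2 units. The KO mean was also the higher one for Tm7sf2, a sterol reductase (0.15), Sc5d, a desaturase (0.07), and Msmo1, a methyl oxidase (0.02).

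**Figure D3:**
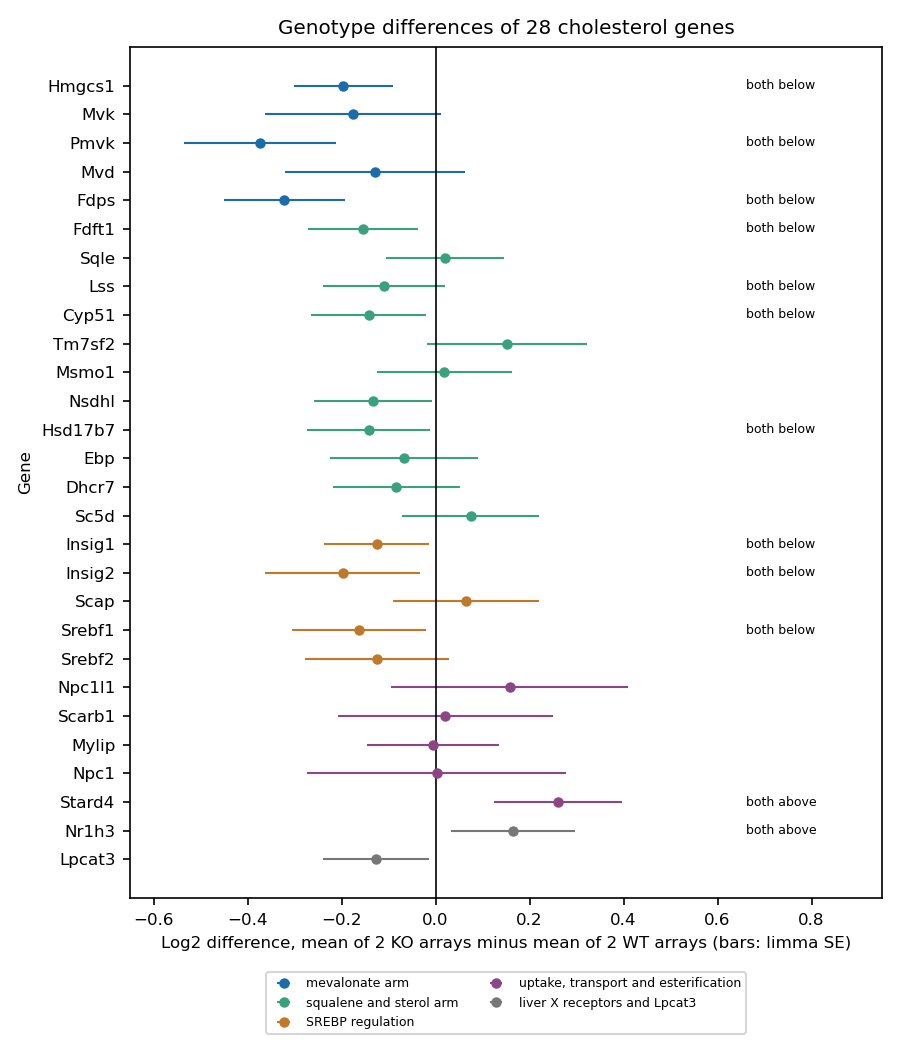
Log2 difference of the mean of 2 KO arrays minus the mean of 2 WT arrays for the 28 genes, with bars for the limma standard error and a mark where both KO arrays lie below or above both WT arrays. All 5 mevalonate genes lie left of 0, and Stard4 and Nr1h3 are the 2 genes with both KO arrays above.

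The regulators were lower in KO in 4 of 5 cases. Insig1, an SREBP-2 target and itself a brake on SREBP processing, read 8.93 and 9.02 in the KO pools with and without prebiotics, against 9.03 and 9.16 in the WT pools titled with and without. The groups nearly touched but did not overlap, differing by -0.13 (SE 0.11, limma adjusted p = 0.999). Srebf1, which encodes the SREBP that favours fatty acid synthesis, had a log2 difference of -0.16 without overlap, and Srebf2, which encodes SREBP-2, -0.12 with overlap. Insig2, the second Insig gene, read 4.29 and 3.92 in the KO pools with and without prebiotics, against 4.30 and 4.30 in the WT pools titled with and without, so its difference of -0.20 rests on 1 KO array, and without that array it was -0.01. Scap, the SREBP escort, differed by 0.06 with overlap.

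Among the genes of uptake and movement 4 of 5 KO means were higher, but those of Npc1 and Scarb1 by only 0.0021 and 0.02 log2 units, and after cyclic loess 2 were higher and 3 lower. Npc1l1 differed by 0.16 over all arrays and by -0.25 without the KO array with prebiotics. Stard4, a soluble carrier of cholesterol between membranes and an SREBP-2 target, read 6.15 and 6.14 in the KO pools with and without prebiotics, against 5.82 and 5.95 in the WT pools titled with and without. Both KO arrays were higher, differing by 0.26 (SE 0.14, limma adjusted p = 0.999). Nr1h3, which encodes liver X receptor alpha, read 3.50 and 3.48 in the KO pools with and without prebiotics, against 3.41 and 3.25 in the WT pools titled with and without, close to background, differing by 0.16 (SE 0.13, limma adjusted p = 0.999). Mylip, the ubiquitin ligase that degrades lipoprotein receptors and is a liver X receptor target, differed by -0.01, and Lpcat3, a phospholipid acyltransferase and liver X receptor target, by -0.13, both with overlap.

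The KO pool without prebiotics carried most of the lower values. Set against the mean of the WT arrays, that array alone was lower for 16 of 16 synthesis genes (median log2 difference -0.18) and for 23 of all 28 genes, beside 6899 of 13083 genes tested. The KO pool with prebiotics was lower for 9 of the 16 (median -0.05) and for 16 of 28, beside 5854 of 13083. The median of the 28 genes, -0.12 over all arrays, was -0.05 without the KO array that had no prebiotics and -0.06 without the WT array titled with them. On the arrays titled without prebiotics the KO minus WT median was -0.11, and on those titled with prebiotics -0.06. With the WT arrays exchanged, as their descriptions have it, these medians were -0.16 and 0.0055, the second with 14 genes higher and 14 lower. By title, 0 of the 28 genes passed 1.5-fold in either single-array pair, beside 2.37% and 1.99% of all genes measured. With the WT arrays exchanged, some genes did pass in each pair, as given in the closing section.

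Marker lists of other tissue components also had different mean values by genotype, though limma called none of these markers. All 6 epithelial markers had a lower KO mean (median log2 difference -0.04), and their summed linear signal was 6021 to 6238 on the KO arrays, against 6358 to 6454 on the WT arrays. All 5 smooth muscle markers had a higher KO mean (median 0.30, summed signal 4218 to 4607 on the KO arrays, against 3296 to 3876 on the WT arrays), as did 4 of 4 fibroblast markers (median 0.49, summed signal 743 to 867 on the KO arrays, against 460 to 615 on the WT arrays). Macrophage markers had a higher KO mean in 5 of 5 cases (median 0.25, summed signal 168 to 172 on the KO arrays, against 89.6 to 143.5 on the WT arrays). Markers of proliferating cells had a lower KO mean in 5 of 5 cases (median -0.10, summed signal 929 to 1025 on the KO arrays, against 973 to 1125 on the WT arrays), as did 3 of 3 B cell markers (median -0.40, summed signal 21.3 to 46.1 on the KO arrays, against 50.2 to 53.1 on the WT arrays). All members measured in these 6 lists passed the filter. In the KO pool with prebiotics, however, the B cell markers Cd79b and Ms4a1 lay below the array median, at 2.47 and 2.78. In the KO pool without prebiotics Cd79b read 3.66, above its WT values of 3.45 and 3.40. The part of these lists in the lower synthesis genes was not tested. None of the 28 cholesterol genes lay within 150 measured genes of Apoe on chromosome 7.

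Within the KO mice, whose labels do not conflict, the pool with prebiotics had higher values for the cholesterol transporters Npc1 and Npc1l1, lower values for Scarb1, and higher values for most synthesis genes. Of the 28 genes, 18 were higher with prebiotics (64.3%), beside 56% of all 12216 genes measured in this pair. The median log2 difference was 0.09 beside 0.04 over all genes, and 0.05 beside -0.0052 after cyclic loess. Past 1.5-fold there were 2 genes, both higher (7.14%), beside 2.63% of all genes higher by that much and 1.15% lower. Of these, Npc1l1 passed the filter in this pair only through the pool with prebiotics, being below the array median in the pool without. The other, Npc1, fell under 1.5-fold when its probe sets were averaged. No gene of the 28 reached 2-fold, beside 0.614% of all genes in either direction. A single array per group leaves these differences without a test or a replicate check.

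Npc1, the lysosomal membrane protein that releases cholesterol taken up by endocytosis, read 6.59 in the KO pool with prebiotics, against 5.80 in the KO pool without, a 1.73-fold difference. In WT it read 6.43 on the array titled with prebiotics, against 5.96 on the array titled without, a log2 difference of 0.47. Both arrays labelled or titled with prebiotics were above both of the others. A second Npc1 probe set lay near background and differed by 0.13 in the KO pair and 0.15 in the WT pair, and the mean of both probe sets gave 0.46 in the KO pair, under 1.5-fold.

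Npc1l1, the brush border transporter that absorbs luminal cholesterol, read 3.67 in the KO pool with prebiotics, against 2.86 in the KO pool without, a log2 difference of 0.81. In WT it read 3.22 on the array titled with prebiotics, against 3.005 on the array titled without. These values lie near background except in the KO pool with prebiotics, so the size of the difference is approximate. Markers of small intestinal enterocytes, the cells best known for Npc1l1, were higher in the KO pool with prebiotics in 6 of 7 cases and in the WT pair by title in 7 of 7. Their summed linear signal was 4973 and 4967 on the KO and WT arrays labelled or titled with prebiotics, against 4008 and 4319 on the KO and WT arrays without. Among these, the ileal bile acid transporter Slc10a2 differed by 2.68 in the KO pair and 2.62 in the WT pair. Lactase (Lct), which is included in both counts, lay below the array median on all arrays and did not pass the filter. Fabp6, another marker of this list, passed it in the KO pair only through the pool with prebiotics, at 3.62 against 2.66 without. The part of these markers in the Npc1l1 values was not tested.

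Scarb1, a receptor that takes up cholesterol ester from high-density lipoprotein, ran the other way. It read 4.68 in the KO pool with prebiotics, against 5.15 in the KO pool without, and 4.63 in the WT pool titled with prebiotics, against 5.15 on the array titled without. The log2 differences of -0.47 and -0.52 were nearly equal, and the values of the KO and WT arrays differed by -0.003 without prebiotics and 0.04 with them, going by title. Mylip differed by -0.13 and -0.07 in the KO and WT pairs, and Stard4 differed by 0.01 and -0.13.

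**Figure D4:**
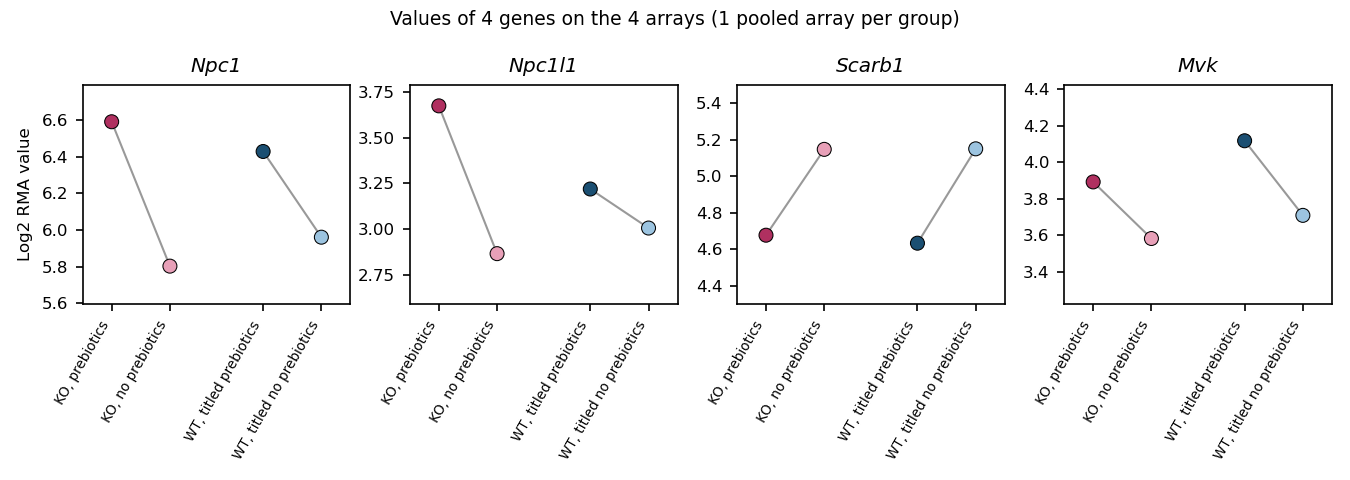
Log2 RMA values of Npc1, Npc1l1, Scarb1 and Mvk on the 4 arrays (1 pooled array each, lines join the arrays of a genotype). Npc1 and Mvk are higher and Scarb1 lower on the arrays labelled or titled with prebiotics in both genotypes, and the KO pool with prebiotics stands highest for Npc1l1.

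Synthesis genes were higher with prebiotics in KO in 12 of 16 cases (75%), beside 56% of all genes, with a median log2 difference of 0.16. In the mevalonate arm it was 4 of 5 (median 0.31), with Mvd at 0.49, Pmvk at 0.32, Mvk at 0.31, Hmgcs1 at 0.08 and Fdps at -0.05. In the squalene and sterol arm it was 8 of 11 (median 0.15), with Tm7sf2 at 0.40, the sterol isomerase Ebp at 0.30 and Sc5d at 0.25. Tm7sf2 read 6.21 in the KO pool with prebiotics, against 5.81 in the KO pool without, and 5.87 and 5.84 on the WT arrays titled with and without, so the KO pool with prebiotics stood alone. Nsdhl, which takes part in removing methyl groups from sterols, differed by -0.23. Of the regulators, Insig2 differed by 0.37, Srebf2 by 0.11, Srebf1 by -0.04, Insig1 by -0.09 and Scap by -0.10. Nr1h3 differed by 0.01 and Lpcat3 by -0.21.

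In the WT pair by title, 0 of 28 genes passed 1.5-fold, beside 3.18% of all 12223 genes measured. On the array titled with prebiotics 16 of 28 were higher (57.1%), beside 52.9% of all genes, with a median of 0.03 beside 0.02. Of the synthesis genes 11 of 16 were higher (median 0.06). Mvk led them at 0.41, followed by Msmo1 and Sc5d at 0.25 each and Ebp at 0.24. Srebf2 differed by 0.36 and Scap by 0.33, whereas Scap differed by -0.10 in KO. By the descriptions in place of the titles, every one of these WT signs turns.

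No array is common to the KO and the WT pair. Of the 28 genes, 15 were higher and 9 lower in both pairs, 3 had opposite signs and Insig2 was level in WT. The same sign was thus found for 85.7% of the 28 genes, beside 60.5% of 11356 genes measured in both pairs, and across the 28 genes the differences of both pairs had a Pearson's r of 0.68 and a Spearman's rho of 0.65, beside 0.33 and 0.29 over all genes. Genes of a pair share their arrays and are not replicates, and with the WT pair exchanged the sign of r turns. The 3 genes with opposite signs were Scap, Cyp51 and Stard4, and for none of them did both differences reach the SD of all gene differences in its pair (0.29 in KO, 0.27 in WT).

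**Figure D5:**
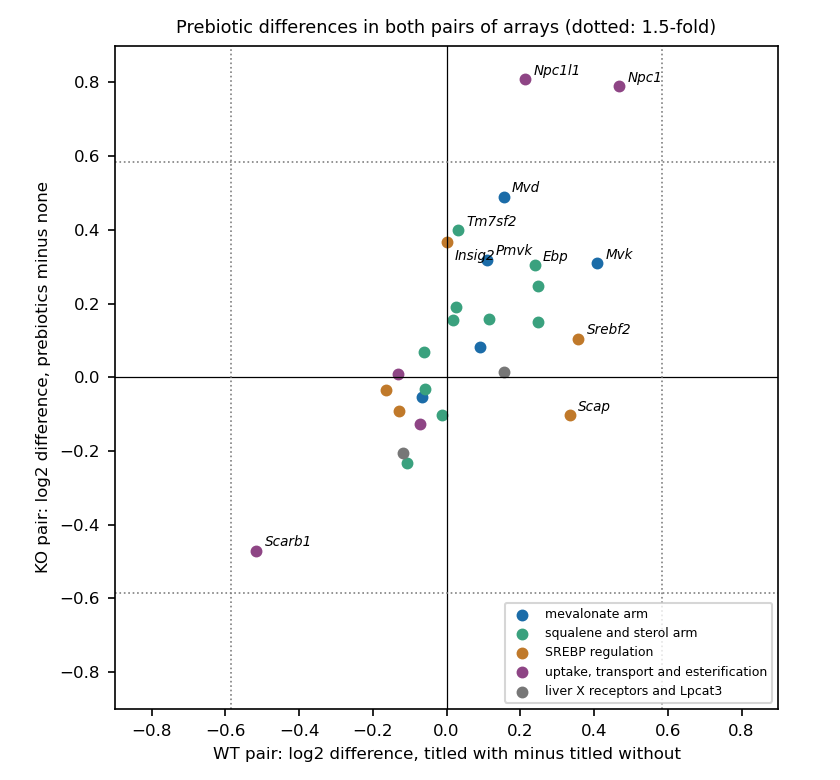
Log2 difference of the KO pair, prebiotics minus none (vertical axis), and of the WT pair, array titled with minus array titled without (horizontal axis), for the 28 genes, coloured by role; dotted lines mark 1.5-fold. Npc1 stands high on both axes, Npc1l1 mainly in KO, and Scarb1 low on both.

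Over both genotypes with WT by title, limma called 0 of the 28 genes at an adjusted p under 0.05, beside 1.25% of all 13083 genes tested. Npc1 came nearest, averaging 6.51 on the arrays with prebiotics, against 5.88 on those without, that is 0.63 log2 units higher (SE 0.13, limma adjusted p = 0.057). Scarb1 had -0.49 (SE 0.13, limma adjusted p = 0.13) and Npc1l1 0.51 (SE 0.16, limma adjusted p = 0.19). Unadjusted p-values under 0.05 were found for 7 of 28 (25%), beside 13.8% of all genes. These were higher for Npc1, Npc1l1, Sc5d, Ebp and Mvk, and lower for Scarb1 and Lpcat3. Both arrays titled or labelled with prebiotics lay above the others for 11 genes (39.3%), beside 25.5% of all genes, and below them for 4 (14.3%), beside 17.4%. With the WT pair exchanged, 0 of 28 genes had an unadjusted p under 0.05, beside 170 of all 13083 genes tested. At an adjusted p under 0.05 limma then called 0 of all genes, so the values above rest on the titles.

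Cell markers also differed between these arrays. All 6 markers of mature colonocytes were higher with prebiotics in KO (median log2 difference 0.56) and in the WT pair by title (median 0.37), with a summed linear signal of 14241 and 13864 on the KO and WT arrays with prebiotics, against 11511 and 11265 on those without. Markers of proliferating cells were lower in 5 of 5 cases in KO (median -0.26) and in 4 of 5 on the WT array titled with prebiotics (median -0.14), with a summed signal of 929 and 973 on the KO and WT arrays with prebiotics, against 1025 and 1125 on those without. Enteroendocrine markers were higher in 4 of 5 cases in each pair (median 1.21 in KO and 0.72 in WT by title, summed signal 468 and 422 on the KO and WT arrays with prebiotics, against 211 and 171 on those without). General epithelial markers were higher in 3 of 6 cases in either pair. Fibroblast markers were higher in 3 of 4 cases in KO and 4 of 4 in WT by title. Smooth muscle markers were higher in 2 of 5 and 0 of 5, and endothelial markers in 0 of 3 and 1 of 3. Adipocyte markers were higher in 2 of 4 and 1 of 4, with a summed signal of 143 and 153 on the KO and WT arrays with prebiotics, against 255 and 309 without. Of these, Adipoq lay below the array median on all arrays and Plin1 on both WT arrays. All members measured in the colonocyte, proliferating, enteroendocrine and epithelial lists passed the filter. The enteroendocrine marker Cck passed it in the KO pair only through the pool with prebiotics, at 4.48 against 2.76 without. The part of any of these lists in the values of Npc1, Scarb1 and the synthesis genes was not tested.

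Beyond the 28 genes, 30 other genes of cholesterol handling were listed, of which 24 were matched to a probe set of their own and 22 passed the filter. Over both diets 11 had a higher and 11 a lower KO mean (median -0.0016), and limma called 0 of 22. For prebiotics over both genotypes by title it also called 0, with 11 higher and 11 lower (median 0.01). The gene past 1.5-fold in a single-array pair was Lrp8, a lipoprotein receptor, with 3.31 in the KO pool without prebiotics, against 3.90 on the WT array titled without. Aacs, which feeds ketone bodies into sterol and fatty acid synthesis, had a KO minus WT difference of -0.40 (SE 0.14, limma adjusted p = 0.999), Erg28, a scaffold of sterol demethylation, a prebiotic difference of 0.31 (SE 0.09, limma adjusted p = 0.14), and Abca1, the liver X receptor target that exports cholesterol, a KO minus WT difference of 0.32 (SE 0.17, limma adjusted p = 0.999). These 3 were chosen after their values were seen.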

How the data were processed

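Caecal RNA was hybridised to 1 Affymetrix array per group, each a pool of 6 mice with 100 ng of RNA labelled, per the labels' protocols. The deposited values are log2 expression per probe set, made by the authors with Affymetrix Expression Console and RMA, per the submitters' processing notes; version, settings and genome build are not given in the sources used here, and the log base follows from RMA. RMA compresses differences near background. The number of arrays limits the precision.

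Of 41345 probe sets, 23521 had 1 gene symbol. A gene entered a comparison if, on 1 or more of the arrays compared, it was at or above that array's median over these. Genotype (2 residual degrees of freedom) and prebiotics with genotype as a term (1 residual degree of freedom) were tested in limma 3.58.1 under R 4.3.3 (eBayes with trend, two-sided, Benjamini-Hochberg over all genes tested), after a check on simulated data. Pairs of single arrays have no test and were read at 1.5-fold. WT arrays were grouped by title and, as an alternative, exchanged. Members and lists were chosen with earlier results of these data known. The naming rule gave array values for genes past 1.5-fold in a pair, called, opposite in KO and WT by at least the SD of all gene differences (0 genes), or among the 8 widest prebiotic differences in KO; genes named beyond it were chosen after their values were seen.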

Additional observations from a re-analysis of the deposited data

How the results depend on the processing

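The alternatives were cyclic loess, no filter, a 75th percentile filter, the mean over probe sets, arrays centred on their median, no trend in eBayes, diet as a block, each array left out, the WT pair exchanged and a 2-fold limit. The labels give no replicate numbers, so arrays could be paired by diet only. With diet as a block, which sets each KO array beside the WT array of the same diet, limma called 0 of 28 genes, by title or exchanged. Of 149 recomputed counts and medians, 133 kept their sign and stayed within 1.5 times of the reported value; most of these counts are 0, which says little about stability. The KO minus WT median lay between -0.120 and -0.0453 over the arrays left out. Cyclic loess gave medians of 0.0541 for prebiotics in KO, 0.0110 for the WT pair by title and -0.0906 for KO minus WT on the arrays titled with prebiotics, and centring gave 0.0115 and -0.0359 for the last 2. With the WT pair exchanged the median was 0.0202 for prebiotics over both genotypes, in place of 0.0969, -0.0273 for the WT pair and 0.0055 for KO minus WT on the arrays with prebiotics, the last 2 with their sign turned; the WT change of sign follows from the exchange itself. With the 75th percentile filter, which tests 24 of the 28 genes, 1 gene had both KO arrays above both WT arrays in place of 2, and 1 passed 1.5-fold higher in KO with prebiotics in place of 2. The mean over probe sets also left 1, with Npc1 at 0.46, and the 2-fold limit 0. With the WT pair exchanged, 2 genes were 1.5-fold lower in KO without prebiotics and 2 higher in KO with them, in place of 0 each. The count with both KO arrays below both WT arrays was 8 after centring and 9 to 10 otherwise. limma called 0 of the 28 genes for genotype in every alternative run, and the adjusted p of Npc1 for prebiotics ranged from 0.057 to 0.22 by title.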
